A study of Mus musculus with 4 samples.

Results

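The genes described here encode the axoneme, the microtubule core of a cilium, and the intraflagellar transport machinery that builds it. They were chosen by name: every gene whose deposited symbol begins with Dnah, Dnai, Dnal, Tekt, Rsph, Cfap or Ift followed by a number or a chain letter, pseudogenes left out. The rule found 66 of the 43346 genes in the table. They were 20 axonemal dynein genes (15 heavy chains and 5 intermediate and light chains), 8 radial spoke genes, 5 tektins, 17 Cfap genes, 14 Ift genes and 2 transcripts named for lying opposite a member, Dnah2os and Ift88os. No measured value entered the choice. In all, 64 members passed the filter on low counts. The other two were Dnah14, with 0 counts in every library, and Rsph6a.

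Polyadenylated RNA labelled as lung epithelial cells was sequenced from IL-33 transgenic mice, which over-express this cytokine of the IL-1 family, and from control mice. Libraries B and E (transgenic replicates 1 and 2) were compared with libraries D and F (control replicates 1 and 2), which asks which genes differ in IL-33 transgenic lungs. The strain, age and sex of the mice, the promoter that drives the transgene and the number of mice per library are not stated in the labels. The p-values below therefore measure the spread between these libraries, which may be technical.

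Motile cilia cover the multiciliated cells of the airways and beat to move mucus. Outer and inner dynein arms walk along the neighbouring microtubule doublet, radial spokes pass signals from the central pair to the arms, and tektins and several Cfap proteins lie inside the doublets. Intraflagellar transport (Ift) trains carry these parts to the tip, and they are used by the primary cilium of many other cell types as well as by motile cilia. RFX transcription factors bind a word called the X-box in promoters of ciliary genes, and FOXJ1, a forkhead factor, drives the motile programme in multiciliated cells.

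Promoter sequences (from 250 bases before to 50 after the start, RefSeq, GRCm38.p6) were found for 53 of 65 member names. The 12 names without one included Rsph1, Rsph4a and Rsph10b, so the radial spoke share below does not cover them. For 44 of 57 promoter records, bases just after the start lay in an annotated transcript of the gene. The other starts were not checked further. Sequences are shown because, among the promoters found, the classes differed in how often they held the X-box half-site. The word GTTGCTA, searched on both strands, lay in the promoters of 11 of 19 axonemal dynein genes (57.9%), 7 of 13 Cfap genes (53.8%), 2 of 5 tektins, 1 of 5 radial spoke genes and 2 of 11 Ift genes (18.2%). Of all 27025 genes with a promoter, 4.28% held it. A palindromic form, GTTGC and GCAAC around any 3 bases, lay in 5 of 19 dynein, 2 of 5 tektin and 1 of 5 radial spoke promoters and in 0 of 13 Cfap and 0 of 11 Ift promoters, against 0.252% of all genes. The 2 words overlap, since the longer can contain the shorter or its complement. In the sequences that follow, each from 5′ to 3′ on the strand of its gene, capitals mark the palindromic form in Dnah6, Dnah7a, Dnah7c, Dnaic2, Tekt2 and Tekt4, an imperfect repeat (GTTGC, any base, A, any 2 bases, G, any base, AAC) in Cfap44, and the half-site alone in Dnah5 and Ift52.
Dnah6: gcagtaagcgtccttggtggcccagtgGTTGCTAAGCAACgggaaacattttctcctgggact
Dnah7a: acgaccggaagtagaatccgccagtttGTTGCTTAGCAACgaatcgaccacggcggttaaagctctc
Dnah7c: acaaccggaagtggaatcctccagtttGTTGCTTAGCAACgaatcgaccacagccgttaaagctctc
Dnaic2: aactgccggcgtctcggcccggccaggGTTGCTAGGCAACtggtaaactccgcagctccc
Tekt4: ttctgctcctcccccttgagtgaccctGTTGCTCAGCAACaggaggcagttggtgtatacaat
Tekt2: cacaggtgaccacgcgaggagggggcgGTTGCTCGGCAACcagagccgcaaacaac
Cfap44: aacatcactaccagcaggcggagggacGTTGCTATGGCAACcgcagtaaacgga
Dnah5: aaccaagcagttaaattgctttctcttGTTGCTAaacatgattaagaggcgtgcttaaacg
Ift52: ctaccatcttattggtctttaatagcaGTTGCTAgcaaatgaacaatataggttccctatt

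On GRCm38 these windows are chr6:73221632-73221694 (minus strand) for Dnah6, chr1:53706802-53706868 (minus) for Dnah7a, chr1:46425422-46425488 (plus) for Dnah7c and chr11:114727359-114727418 (plus) for Dnaic2. Those of Tekt4, Tekt2 and Cfap44 are chr17:25471527-25471589 (plus), chr4:126325689-126325744 (minus) and chr16:44394745-44394798 (plus). Those of Dnah5 and Ift52 are chr15:28203631-28203691 and chr2:163017254-163017314 (both plus). Dnah7b held the same palindromic letters as Dnah7a and Dnah7c. The 3 are near-identical paralogs and make up 3 of the 5 dynein matches, which are thus not independent. All 3 also held GTTGCTA, so the 11 dynein matches to the half-site are not independent either. The imperfect repeat lay in 4 of 13 Cfap promoters and in 0.426% of all. The forkhead word TGTTTAC lay in 1 of 19 dynein, 2 of 13 Cfap, 1 of 5 tektin and 0 of 11 Ift promoters, near its share of 4.05% over all genes in the dyneins. The half-site variant GTTGCCA lay in 3 of 13 Cfap (23.1%), 2 of 19 dynein, 2 of 11 Ift, 1 of 5 tektin and 0 of 5 radial spoke promoters, against 5.02% of all, and the looser GTTGCNA lay in 12 of 19 dynein, 9 of 13 Cfap and 4 of 11 Ift promoters, against 11.9% of all. In total 6 words were tried, and the forms were chosen after several had been looked at. A match describes letters and is not a measured binding site.

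Gene counts summed to between 76120696 (B) and 87723745 (E) per library. Il33 stood at 1723 and 874 counts per 1000000 (CPM) in B and E and at 117 and 108 CPM in D and F, as the labels have it. The summed CPM of 4 Y-linked genes was 1.43 and 23.2 in B and E and 258 and 123 in D and F, so B and E were below D and F, and sex and genotype cannot be fully told apart. Markers of multiciliated cells were detected in every library, 15 of 15 of them, with a summed level of 2290 (B) and 1651 (E) CPM in the transgenic pair and 1765 (D) and 2027 (F) CPM in the controls. Markers of endothelial cells (4321 to 7417 CPM), fibroblasts and smooth muscle (1090 to 2577 CPM) and leukocytes (721 to 846 CPM) were detected too. Most of the leukocyte sum was Lyz2 (670 to 801 CPM), which alveolar type 2 cells also express. Of the 10 leukocyte markers, 9 had a log2 fold change above 0 (median 0.73, 0 called), and Lyz2 lay at -0.01. In 4 of the 10, B and E were both above D and F, against 11.9% of all genes. Among them Ptprc, the common leukocyte antigen CD45, stood at 20.6 and 30.0 CPM in B and E and 8.21 and 16.5 CPM in D and F.

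No member differed between the groups past an adjusted p of 0.05. The edgeR quasi-likelihood test called 0 of 64 members and 0% of the 20872 genes tested. At an unadjusted p under 0.05 there was 1 member, Tekt3, against 1.29% of all genes. DESeq2 and limma-voom also called 0 members, and over all genes 1 (0.00479%) and 0. Members with B and E both above D and F were 2, Cfap97 and Ift88os, against 11.9% of all genes. Those with B and E both below D and F were 4, Tekt3, Tekt5, Ift27 and Dnah2os, against 12.0%. The log2 fold change was above 0 for 49 of 64 members, with a median of 0.09, where it was above 0 for 10351 of 20872 genes with a median of -0.00. In RNA pooled from many cells, a change in the number of ciliated cells and a change in RNA per cell cannot be told apart.

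**Figure D1:**
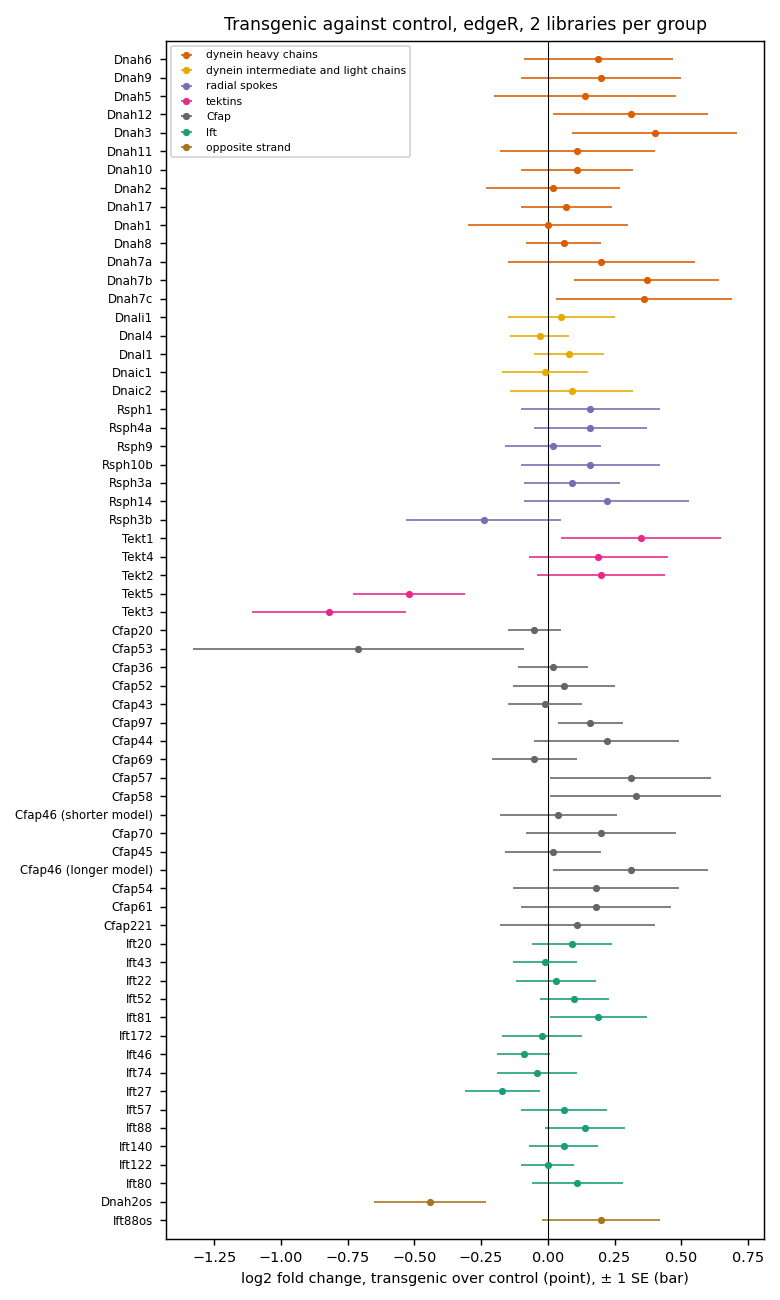
Log2 fold change, transgenic minus control, of the 64 tested members by class (horizontal axis in log2 units), with bars of 1 standard error from the edgeR fit. The dynein heavy chains lie between 0.00 and 0.40, and Tekt3 and Cfap53 lie farthest below 0, at -0.82 and -0.71.

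The sign of most fold changes rested on a single library: 49 of 64 changed sign when 1 library was left out. The share over all genes was not counted, so this cannot be read as particular to the members. The members also differed between the libraries of 1 group. Library D was the lowest of the 4 for 39 of 64 members, against 21.9% of all genes, and library B was the highest for 38, against 33.7%. The ratio of D to F, both controls, was below 0.8 for 31 of 64 members, against 18.6% of all genes. These counts describe libraries singled out after their values were seen.

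**Figure D2:**
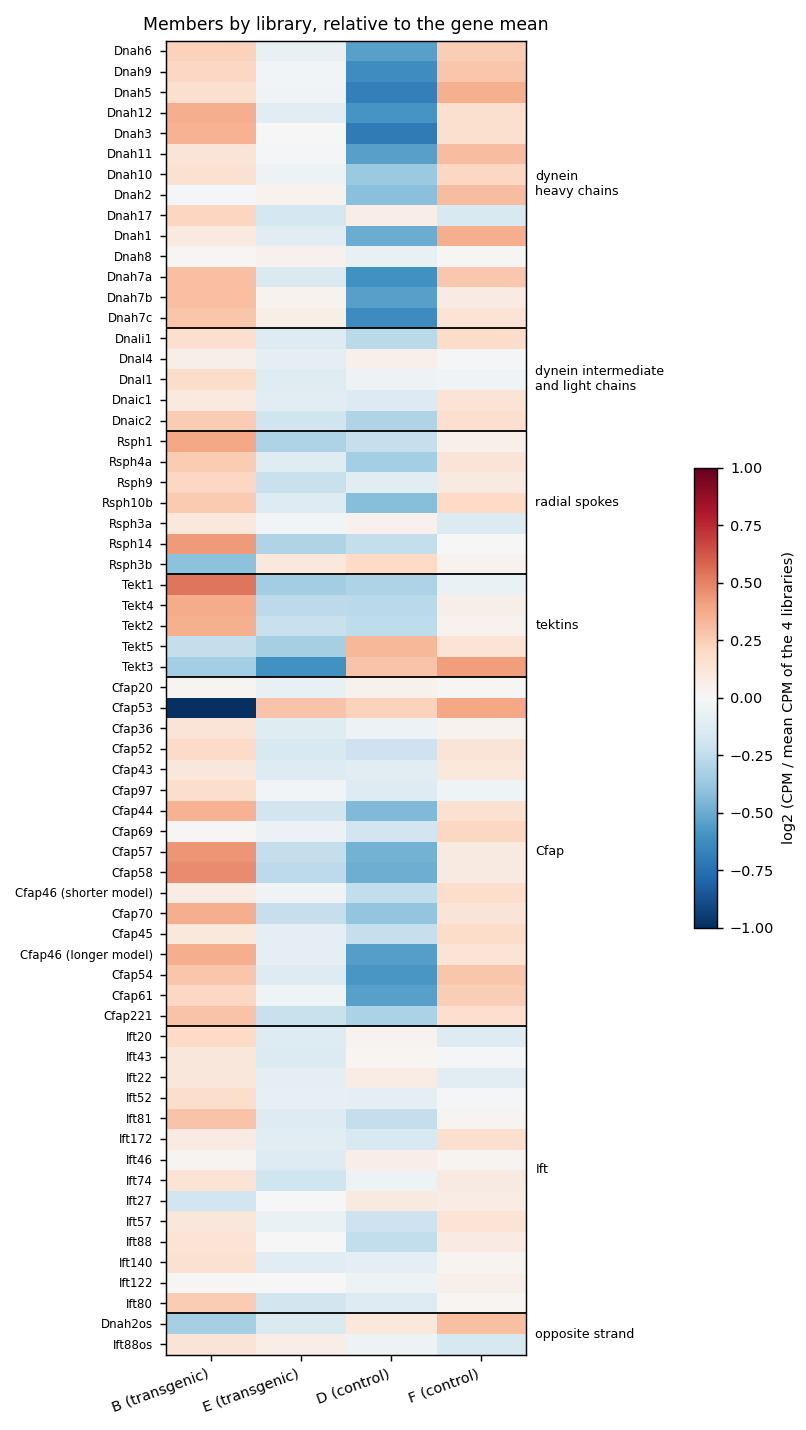
Heat map of the members (rows, by class) in the 4 libraries (columns), each cell the log2 of the gene's CPM relative to its mean over the libraries, with the colour scale ending at -1 and 1. Most dynein heavy chain and Cfap rows are lowest in D, and Cfap53 is lowest in B.

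Axonemal dynein heavy chains, the motor subunits of the arms, were the class with the widest gap between the 2 controls. Their summed level was 589 and 491 CPM in B and E, with 350 and 600 CPM in D and F. Thus F and B stood highest and D lowest, and the groups overlapped. The transgenic mean was 540 ± 68.8 CPM and the control mean 475 ± 177 CPM (SD, n = 2 each). All 14 tested heavy chains had a log2 fold change at or above 0, with a median of 0.16, and 0 were called. D was the lowest library for 13 of 14, and the median ratio of D to F was 0.584, against 0.829 for E to F, 0.998 for B to F and 0.992 for D to F over all genes. The direction of the dyneins rests on those libraries: the class median of 0.11, intermediate and light chains included, was -0.15 without D and 0.50 without F.

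The outer arm chains Dnah5 and Dnah9 and the related Dnah11 shared 1 order of libraries. Dnah5 (ENSMUSG00000022262, chr15:28203752-28472045) stood at 87.1 and 75.8 CPM in transgenic B and E, and 48.5 and 99.6 CPM in control D and F (log2 fold change 0.14, SE 0.34). The 2 control libraries enclosed both transgenic ones, with D at 0.487 of F, the lowest such ratio of the 64 tested members. Dnah9 (ENSMUSG00000056752, chr11:65831282-66168551) stood at 96.7 (B) and 82.4 (E) CPM in the transgenic pair and 54.7 (D) and 102 (F) CPM in the controls (log2 fold change 0.20, SE 0.30). Dnah11 stood at 54.6 and 49.2 CPM in B and E, with 34.2 and 61.7 CPM in D and F. In all 3 that order was F, B, E, D. Per kilobase the ratio of Dnah5 to Dnah9 was 0.919 and 0.939 in B and E and 0.905 and 0.999 in D and F, and that of Dnah11 to Dnah9 was 0.622, 0.658, 0.689 and 0.669, a narrower range than that of their levels.

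Among the inner arm chains, Dnah6 (ENSMUSG00000052861, chr6:73017606-73221651) had the highest level per length of any heavy chain, a mean of 6.87 CPM per kilobase. It stood at 107 and 86.5 CPM in transgenic B and E, and 62.5 and 108 CPM in control D and F (log2 fold change 0.19, SE 0.28). Dnah12, another inner arm chain, stood at 68.6 (B) and 49.6 (E) CPM in the transgenic pair and 35.5 (D) and 59.7 (F) CPM in the controls (log2 fold change 0.31, SE 0.29). Both were lowest in D, with the other control among or above the transgenic libraries. Dnah3, an inner arm chain, stood at 59.2 and 46.4 CPM in B and E, with 28.4 and 51.9 CPM in D and F (log2 fold change 0.40, SE 0.31, unadjusted p = 0.254). Its exons share 1506 bases with Lyrm1 on the opposite strand, and since the strand setting of the counting is not given, reads of overlapping genes cannot be told apart. Dnah10, Dnah2 and Dnah1 had ratios of D to F of 0.669, 0.602 and 0.548, with log2 fold changes of 0.11, 0.02 and 0.00.

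The Dnah7 paralogs were low. Dnah7b stood at 5.81 and 4.83 CPM in transgenic B and E, and 3.25 and 5.0 CPM in control D and F (log2 fold change 0.37, SE 0.27, unadjusted p = 0.235). Dnah7c was the lowest tested heavy chain per length, at 0.128 CPM per kilobase. Dnah7a, Dnah7b and Dnah7c are near-identical, so the split of reads among them is uncertain. Dnah17 and Dnah8 are known as chains of the sperm flagellum. Dnah17 was not lowest in D, and Dnah8 was lowest there by a narrow margin. Dnah17 stood at 23.7 (B) and 18.1 (E) CPM in the transgenic pair and 21.4 (D) and 18.4 (F) CPM in the controls, and Dnah8 at 9.77, 9.99, 9.19 and 9.78 CPM. Their ratios of D to F were 1.17 and 0.940, the highest of the heavy chains. Dnah14 had 0 counts in every library, which allows up to 0.0397 CPM in B, the shallowest, for counting error only. The gene model counted for it spans 2393 bases of exon, against 16235 in GENCODE M21.

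Dynein intermediate and light chains, which anchor and regulate the motors, varied less than the heavy chains between the controls only. Their summed level was 139 and 114 CPM in B and E, with 115 and 131 CPM in D and F. The median log2 fold change over the 5 was 0.05. The summed ratio of D to F was 0.873, against 0.583 in the heavy chains, and that of B to E was 1.22, against 1.20. Dnali1, an inner arm light intermediate chain, was the highest per length at 13.0 CPM per kilobase and stood at 31.0 and 25.2 CPM in transgenic B and E, and 22.9 and 31.4 CPM in control D and F. Dnaic2, an outer arm intermediate chain, stood at 25 (B) and 18.2 (E) CPM in the transgenic pair and 17.0 (D) and 23.5 (F) CPM in the controls (log2 fold change 0.09, SE 0.23). Its outer arm partner Dnaic1 stood at 13.9, 12.0, 11.8 and 14.3 CPM. In all 3 genes E and D lay below B and F. The light chains Dnal1 and Dnal4 had ratios of D to F of 0.989 and 1.05, with log2 fold changes of 0.08 (SE 0.13) and -0.03 (SE 0.11).

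**Figure D3:**
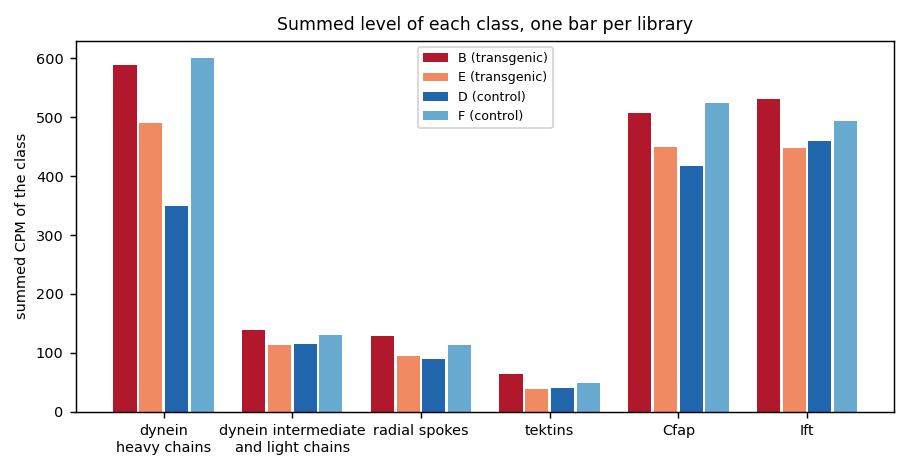
Summed CPM of each class (vertical axis) in the 4 libraries, 1 bar per library (red shades transgenic, blue shades control). The dynein heavy chains run from 350 in D to 600 in F, while the Ift genes run from 448 in E to 531 in B.

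Radial spoke genes were highest in B and low in both D and E. Their summed level was 128 and 94.5 CPM in B and E, with 88.9 and 114 CPM in D and F, so the transgenic mean of 111 ± 24.0 CPM and the control mean of 102 ± 18 CPM (SD, n = 2 each) differed by less than either spread. The log2 fold change was above 0 for 6 of 7 tested members, with a median of 0.16 and 0 called. Rsph1, a spoke head protein, was the highest per length at 18.5 CPM per kilobase and stood at 28.2 and 17.4 CPM in transgenic B and E, and 18.4 and 22.3 CPM in control D and F. Rsph4a, also of the head, stood at 48.7 (B) and 37.4 (E) CPM in the transgenic pair and 32.3 (D) and 44.7 (F) CPM in the controls (log2 fold change 0.16, SE 0.21). Rsph9 and Rsph10b, further head proteins, gave 0.02 (SE 0.18) and 0.16 (SE 0.26) on the log2 scale. In all 4, B was the highest library.

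Rsph14 stood at 3.75 and 2.27 CPM in B and E, with 2.36 and 2.78 CPM in D and F (log2 fold change 0.22, SE 0.31). The stalk protein genes Rsph3a and Rsph3b, are near-identical paralogs whose reads may be split. Rsph3a stood at 5.77 and 5.25 CPM in B and E, with 5.52 and 4.86 CPM in D and F (log2 fold change 0.09, SE 0.18). It was highest in B like the head genes, but lowest in F. Rsph3b was the lowest tested spoke gene per length, with 0.940 and 1.34 CPM in transgenic B and E, and 1.43 and 1.28 CPM in control D and F (log2 fold change -0.24, SE 0.29). Rsph6a, the testis paralog of Rsph4a, had 29 and 2 counts in B and E and 0 and 1 in D and F, and did not pass the filter. Of 10 testis markers, 8 and 4 were at 0 in B and E and 5 and 4 in D and F, with summed levels of 0.693 to 1.43 CPM. Most of that sum was Zpbp, the only 1 that passed the filter, at 1.31 and 0.790 CPM in B and E and 0.955 and 0.434 CPM in D and F.

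Tektins, filament proteins of the doublets, divided by gene. Tekt1 (ENSMUSG00000020799, chr11:72344722-72362442) stood at 31.2 (B) and 16.9 (E) CPM in the transgenic pair and 17.4 (D) and 20.5 (F) CPM in the controls (log2 fold change 0.35, SE 0.30). Library B alone was high, and E lay below both controls. Tekt4 stood at 15.8 and 10.2 CPM in B and E, with 10.1 and 12.7 CPM in D and F, and Tekt2 at 13.9, 9.31, 9.11 and 11.1 CPM (log2 fold change 0.20, SE 0.24). The ratio of Tekt4 to Tekt2 per length stayed between 1.35 (E) and 1.42 (F), and that of Tekt1 to Tekt2 between 2.13 (E) and 2.64 (B).

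Tekt3 and Tekt5, best known from sperm flagella, lay in the other direction. Tekt3 (ENSMUSG00000042189, chr11:63061654-63094964) had 45 and 44 counts in B and E and 74 and 86 in D and F. These were 0.596 and 0.496 CPM in transgenic B and E, and 0.918 and 1.01 CPM in control D and F, both transgenic libraries below both controls (log2 fold change -0.82, SE 0.29, unadjusted p = 0.0361, adjusted p = 1.0 by edgeR). Tekt5 stood at 2.29 (B) and 2.14 (E) CPM in the transgenic pair and 3.39 (D) and 2.97 (F) CPM in the controls, again without overlap (log2 fold change -0.52, SE 0.21, unadjusted p = 0.0526). They were the 2 lowest tektins per length, at 0.432 and 1.49 CPM per kilobase, and such low counts limit the precision. With 1 library left out, the log2 fold change ran from -0.95 to -0.70 for Tekt3 and from -0.61 to -0.42 for Tekt5. Since the groups did not overlap, leaving out 1 library could not turn either sign, so the kept sign adds no support.

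The Cfap genes, named for cilia and flagella associated proteins, were lowest in D for most members. Their summed level was 507 and 450 CPM in B and E, with 417 and 524 CPM in D and F. D was the lowest library for 13 of 17, the median ratio of D to F was 0.744, and the median log2 fold change was 0.11 with 0 called. Cfap54, a central pair protein, stood at 43.7 and 33.0 CPM in transgenic B and E, and 24.1 and 43.8 CPM in control D and F, with D at 0.550 of F. Cfap61, a protein of the radial spoke base, stood at 27.1, 22.7, 16.1 and 27.8 CPM, and Cfap44 at 64.5, 44.5, 37.2 and 56.3 CPM. All 3 were lowest in D, with F above E. The table holds 2 gene models named Cfap46, and the longer, with 18 (B) and 13.1 (E) CPM in the transgenic pair and 9.57 (D) and 15.4 (F) CPM in the controls, had a log2 fold change of 0.31 (SE 0.29). Cfap221, the lowest Cfap gene per length at 1.21 CPM per kilobase, stood at 4.29 and 3.01 CPM in B and E, with 2.82 and 3.96 CPM in D and F.

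Cfap20, a protein of the inner junction of the doublets, was the highest Cfap gene per length at 43.7 CPM per kilobase. It stood at 57.4 and 53.5 CPM in B and E, with 58.0 and 56.8 CPM in D and F and was not low in D (log2 fold change -0.05, SE 0.10). Cfap97 was the Cfap gene with both transgenic libraries above both controls, at 39.3 and 34.2 CPM in transgenic B and E, and 31.8 and 33.8 CPM in control D and F (log2 fold change 0.16, SE 0.12). The nearest pair, E and F, differed by less than 1 CPM. Cfap36 and Cfap52, also among the highest per length at 14.3 and 7.21 CPM per kilobase, gave 0.02 (SE 0.13) and 0.06 (SE 0.19) on the log2 scale, with D at 0.944 and 0.793 of F.

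Cfap53, a protein inside the doublets that is also needed for left-right asymmetry, was low in 1 library. Cfap53 (ENSMUSG00000035394, chr18:74283090-74359986) stood at 12.9 (B) and 51.8 (E) CPM in the transgenic pair and 49.9 (D) and 55.6 (F) CPM in the controls (972, 4588, 4024 and 4736 counts). B was at 0.231 of F, while E, the other transgenic library, lay between the 2 controls, so the log2 fold change of -0.71 had an SE of 0.62. Without library E it was -2.04 (SE 0.16, adjusted p = 0.0117 by edgeR), where 0.0697% of all genes were called. That was the only call of a member in any fit made here, and it compares B alone with the controls. The neighbours of Cfap53 did not share the low value: Mbd1 stood at 40.5 and 42.1 CPM in B and E, with 39.9 and 40.2 CPM in D and F, and Cxxc1 at 72.5, 66.1, 72.2 and 68.9 CPM. Myo5b, on the other side, stood at 121 CPM in B against 84.3 in E, 101 in D and 81.7 in F.

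Ift genes varied less than the heavy chains between the controls, but about as much between B and E (summed ratio 1.19 against 1.20). Their summed level was 531 and 448 CPM in transgenic B and E, and 459 and 494 CPM in control D and F, with a transgenic mean of 489 ± 58.7 CPM and a control mean of 477 ± 24.9 CPM (SD, n = 2 each). The log2 fold change was above 0 for 9 of 14, with a range of -0.17 to 0.19 and a median of 0.04. D was the lowest library for 6 of 14, and the median ratio of D to F was 0.927, against 0.584 in the heavy chains. Ift20, a complex B protein that sorts cargo at the Golgi, was the highest per length at 34.3 CPM per kilobase and stood at 60.0 (B) and 47.7 (E) CPM in the transgenic pair and 53.5 (D) and 47.9 (F) CPM in the controls. Ift43, Ift22 and Ift52 had 33.0, 13.0 and 12.4 CPM per kilobase, and Ift80 was the lowest, at 3.67.

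Within complex B, which carries cargo toward the tip, Ift81 stood at 46.6 and 34.9 CPM in B and E, with 32.4 and 38.9 CPM in D and F (log2 fold change 0.19, SE 0.18). Ift88 stood at 32.0 and 29.1 CPM in transgenic B and E, and 24.6 and 30.9 CPM in control D and F (log2 fold change 0.14, SE 0.15). Both were lowest in D and highest in B. Ift46 stood at 61.2 (B) and 54.7 (E) CPM in the transgenic pair and 62.8 (D) and 60.9 (F) CPM in the controls (log2 fold change -0.09, SE 0.10). Ift27, a small GTPase of complex B, stood at 8.64 and 9.87 CPM in B and E, with 10.5 and 10.4 CPM in D and F, so both transgenic libraries lay below both controls (log2 fold change -0.17, SE 0.14). The complex A members Ift122, Ift140 and Ift43 gave 0.00 (SE 0.10), 0.06 (SE 0.13) and -0.01 (SE 0.12) on the log2 scale.

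The 2 opposite-strand transcripts went different ways. Dnah2os, whose exons share 312 bases with Dnah2, stood at 2.30 and 2.62 CPM in transgenic B and E, and 3.11 and 3.56 CPM in control D and F, with no overlap between the groups (log2 fold change -0.44, SE 0.21, unadjusted p = 0.0893). Ift88os, which shares 67 bases with Ift88, stood at 1.93 (B) and 1.85 (E) CPM in the transgenic pair and 1.71 (D) and 1.58 (F) CPM in the controls (log2 fold change 0.20, SE 0.22). Dnah2 itself had the order F, E, B, D, so Dnah2os was not low where Dnah2 was.

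The low level in library D ran with the length of the members, which in turn ran with class. Median ratios of D to F were 1.02 for 3 members under 1000 bases, 0.887 for 12 of 1000 to 2000, 0.835 for 17 of 2000 to 4000 and 0.795 for 13 of 4000 to 8000. They were 0.627 for 4 members of 8000 to 12000 bases and 0.581 for 15 of 12000 or more. Each of these bins holds under 20 members. Over all genes the median went from 1.02 under 1000 bases to 0.887 at 12000 or more, a gradient in the same direction and shallower. The medians of the ratio of E to F lay between 0.823 and 0.916 in the members and between 0.988 and 1.01 over all genes. Across the 48 dynein, spoke, tektin and Cfap members, which share libraries and depth, Spearman's rho of length against the ratio of D to F was -0.60, against 0.01 for E to F and -0.12 for D to F over 20844 genes. Across the 14 Ift genes it was -0.42 for D to F and -0.36 for E to F, so there the 2 ratios were alike. The 14 tested dynein heavy chains were all of 11097 bases or more. The only other members of 12000 bases or more were Cfap54 and Ift80, so length and class largely overlap. Whether length or ciliary identity sets the low values was not tested. Dnah17 (16478 bases), Dnah8 (14583 bases) and Ift80 (12428 bases) were long and had ratios of 1.17, 0.940 and 0.905. Outside the members, the long ciliary genes Hydin (15783 bases), of the central pair, and Dync2h1 (16161 bases), the motor of retrograde transport, had ratios of 0.510 and 0.711. Shorter ciliary genes went both ways: Rsph10b (3101 bases) stood at 0.645 and Spata18 (2001 bases) at 0.574, but Cfap20 (1292 bases) at 1.02. Some long markers of other cell types were low in D too. Muc5b (14964 bases) stood at 0.601, Col1a2 (12136 bases) at 0.636 and Ptprc (18313 bases) at 0.497. Short markers on the same lists were low as well, such as Acta2 (1781 bases) at 0.631 and Tff2 (584 bases) at 0.493. The list medians were 0.723 (goblet), 0.636 (fibroblast and smooth muscle) and 0.584 (leukocyte). Abca3 (8797 bases), an alveolar type 2 marker, was not low, at 1.06.

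**Figure D4:**
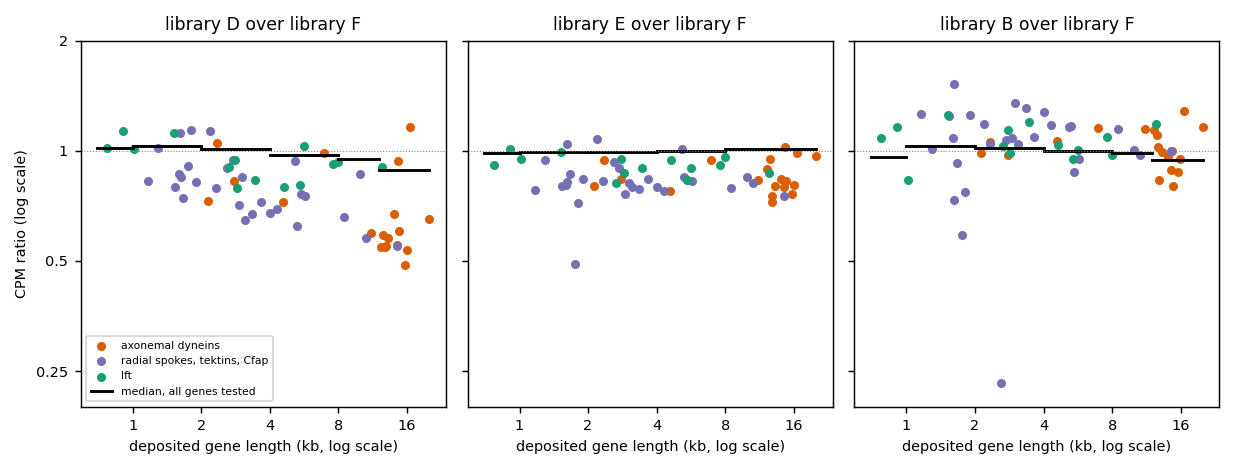
CPM ratio of libraries D, E and B to library F in 3 panels (log axis) against deposited gene length in kilobases (log axis), 1 point per member coloured by class, with black lines for the medians of all genes tested in each length bin. In the D panel the 15 members of 12000 bases or more have a median of 0.581, against 0.828 in the E panel and 0.998 in the B panel.

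Related ciliary genes under other names were read from lists with the members left out. None of their genes passed an adjusted p of 0.05 or an unadjusted p of 0.05 in edgeR's test. Of 40 genes of the nexin-dynein regulatory complex, central pair and other axoneme, 34 lay above 0 on the log2 scale (median 0.13), and D was the lowest library for 28 with a median ratio of D to F of 0.737. Of 19 tested genes for dynein docking and preassembly, 16 lay above 0 (median 0.09, ratio 0.828). Among 23 transport and cargo proteins under other names, 17 lay above 0 (median 0.05, ratio 0.852). Traf3ip1, a complex B protein, stood at 66.4 and 49.6 CPM in B and E, with 43.7 and 62.2 CPM in D and F, and Ttc21b, of complex A, had a log2 fold change of 0.22 (SE 0.11). Among 16 tested transport motors, 9 lay above 0 (median 0.07, ratio 0.954).

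Of 16 genes for multiciliated cell transcription and centriole amplification, 12 lay above 0 (median 0.08), and their median ratio of D to F was 1.14. Foxj1 stood at 124 and 93.3 CPM in transgenic B and E, and 93.6 and 124 CPM in control D and F, so it was as low in E as in D. The multiciliated markers had median ratios of 0.788 for D to F and 0.790 for E to F. The heavy chains, at 0.584 and 0.829, were thus lower in D than in E, while those markers were alike in both. The markers were also shorter, at most 2784 bases against 11097 or more in the tested heavy chains. The dynein intermediate and light chains, at 0.821 and 0.838, were alike in both libraries too. Other cell markers also differed between the libraries. In the order B, E, D and F, alveolar type 2 markers summed to 63252, 41768, 51895 and 37855 CPM, alveolar type 1 markers to 4326, 3836, 4749 and 3932 CPM and club cell markers to 13470, 8599, 11275 and 8677 CPM. In the same order, goblet markers summed to 27.3, 156, 111 and 173 CPM, basal markers to 4.71, 3.86, 5.40 and 3.06 CPM and neuroendocrine markers to 6.66, 5.0, 5.98 and 6.27 CPM. The part of cell makeup, and of the sex difference, in the members' values was not tested.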

How the data were processed

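The authors deposited whole-number read counts per gene, not normalized, and RPKM values, for 43346 genes of mouse build GRCm38 (mm10). The RPKM deposited by the authors was not used for tests. Its totals exceed the gene counts, which were 80.3% to 82.7% of them. Reads were processed with featureCounts (version 1), Bowtie (version 1) and TopHat2 (version 2), per the submitters' processing notes. The annotation release, strand setting and treatment of multiply matching reads are not given in the labels or the file. Mitochondrial genes had 0 counts in every library.

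Genes passing filterByExpr (at least 10 counts, total at least 15) were scaled by TMM and tested over 20872 genes with edgeR 4.0.16's quasi-likelihood test (legacy setting, R 4.3.3), transgenic against control, 2 libraries each, with no covariate and Benjamini-Hochberg adjustment at 0.05. CPM use TMM-scaled totals, and levels between genes are CPM per kilobase of the deposited length. Exon overlaps and strands come from GENCODE M21 (GRCm38). Alternatives were other scaling factors, filters and dispersions, DESeq2 1.42.0, limma-voom (limma 3.58.1), a covariate separating B and D from E and F, and each library left out. The fit was also run on simulated counts, with the same dispersion for every gene and larger fold changes than the members had. That run does not show how well changes of the size described here would be found. The genes named by rule in each class were the 4 highest per length, the lowest, and the 2 with the smallest p in each direction. Others were named after their values were seen, among them Cfap54, Cfap61, Cfap44, Dnah11, Dnah17, Dnah8, Hydin, Dync2h1, Spata18, Muc5b, Col1a2, Ptprc, Acta2, Tff2, Abca3 and Zpbp. Genes of the other lists are named only in part. The members, the 5 pathway lists and 11 marker lists and the tests were chosen with earlier results of these data known.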

Additional observations from a re-analysis of the deposited data

How the results depend on the processing

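No paired analysis was possible because the labels give the libraries letters and no shared replicate numbers. The numbers used here follow accession order and pair nothing. The term separating B and D from E and F, a split known from earlier results, happens to group the same libraries; with it 0 members were called, class medians were 0.13 (dyneins and radial spokes), 0.16 (tektins), 0.10 (Cfap) and 0.04 (Ift), and no sign turned. With all 4 libraries, DESeq2 called 1 gene where edgeR called 0. With each library left out in turn edgeR called 0 to 15 genes and 0 to 1 members (Cfap53, without E), an arm then holding 1 library that is assumed to vary like the others. Class medians of the log2 fold change over these fits ran from -0.15 to 0.50 for dyneins, -0.04 to 0.33 for radial spokes, -0.16 to 0.45 for tektins, -0.10 to 0.27 for Cfap and -0.08 to 0.13 for Ift genes. Of 64 tested members, 49 changed sign when 1 library was left out, a count that was not made over all genes. Their lowest and highest log2 fold changes in these fits were as follows. Among dyneins they were Dnah1 (-0.37 to 0.50), Dnah2 (-0.30 to 0.44), Dnah5 (-0.29 to 0.75), Dnah6 (-0.15 to 0.63), Dnah7a (-0.17 to 0.71), Dnah9 (-0.18 to 0.71), Dnah10 (-0.15 to 0.43), Dnah11 (-0.25 to 0.60), Dnah12 (-0.02 to 0.73), Dnah17 (-0.13 to 0.24), Dnaic1 (-0.15 to 0.14), Dnal1 (-0.08 to 0.21), Dnali1 (-0.16 to 0.30), Dnaic2 (-0.15 to 0.34) and Dnal4 (-0.11 to 0.04). Among radial spokes and tektins they were Rsph1 (-0.23 to 0.46), Rsph3a (-0.00 to 0.18), Rsph4a (-0.05 to 0.41), Rsph9 (-0.21 to 0.20), Rsph10b (-0.12 to 0.51), Rsph14 (-0.18 to 0.53), Tekt1 (-0.16 to 0.71), Tekt2 (-0.12 to 0.45) and Tekt4 (-0.16 to 0.46). Among Cfap genes they were Cfap36 (-0.12 to 0.13), Cfap43 (-0.14 to 0.10), Cfap44 (-0.07 to 0.55), Cfap45 (-0.17 to 0.23), Cfap46, shorter model (-0.16 to 0.27), Cfap52 (-0.12 to 0.24), Cfap54 (-0.19 to 0.67), Cfap57 (-0.07 to 0.62), Cfap58 (-0.08 to 0.64), Cfap61 (-0.16 to 0.63), Cfap69 (-0.23 to 0.16), Cfap70 (-0.12 to 0.49) and Cfap221 (-0.17 to 0.37). Among Ift genes they were Ift20 (-0.09 to 0.23), Ift22 (-0.08 to 0.12), Ift43 (-0.14 to 0.10), Ift52 (-0.03 to 0.22), Ift57 (-0.10 to 0.24), Ift74 (-0.22 to 0.11), Ift80 (-0.13 to 0.30), Ift81 (-0.03 to 0.38), Ift88 (-0.02 to 0.31), Ift122 (-0.05 to 0.05), Ift140 (-0.07 to 0.18) and Ift172 (-0.17 to 0.14). Cfap53 ran from -2.04 to -0.03. With all 4 libraries, there were 7 turns of sign, each of 1 member in 1 setting, for 3 members near 0. They were Ift122 and Dnah1 (-0.00 with upper-quartile factors or no filter, -0.01 with the stricter filter) and Rsph9 (-0.01 with limma-voom). Depth limits Tekt3, with 44 to 86 counts per library, and Rsph6a, with 0 to 29.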
